A study of Mus musculus with 6 samples.

Results

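The O(5R)SK array of day 7 was set against the O(WT)SK array of day 7, which are 2 of the 6 arrays of the series. Fibroblasts of B6CBAF1/J mouse embryos had been reprogrammed with SOX2 and KLF4 together with wild-type OCT4 in O(WT)SK, or together with an OCT4 form named 5R in O(5R)SK. Both combinations thus shared SOX2, KLF4, the strain and the medium, which is made for embryonic stem cells and holds serum and recombinant LIF. The same 2 combinations were also measured on days 3 and 5, with 1 Affymetrix Mouse Genome 430 2.0 array each. What the name 5R stands for, how the factors were delivered and how many cultures fed an array is not stated in those sources that were used. With 1 array a side no difference has a replicate check, so every value is a description of these arrays and no test was made. RNA came from whole cultures, in which fewer cells of a type and less RNA per cell cannot be told apart.

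OCT4, encoded by Pou5f1, is the POU transcription factor at the centre of the pluripotency network, and together with SOX2 and KLF4 it can return fibroblasts to a pluripotent state. On that path fibroblasts lose mesenchymal features, gain epithelial adhesion molecules such as E-cadherin, and switch on embryonic stem cell genes in stages, of which the core regulators Nanog, Sox2 and Zfp42 are usually late. Such cultures are usually mixtures in which only some cells advance.

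Members were genes at least 2-fold apart between the day 7 arrays under both scalings: the intensities as deposited, and the same intensities after quantile normalization over the 6 arrays. Differences are O(5R)SK minus O(WT)SK in log2(intensity + 64), a scale that understates the change of genes with low intensities. They are given first for the deposited and then for the quantile-normalized values. The brightest probe set naming only that gene stood for each of 18193 genes. Of these, 68 genes were higher with O(5R)SK (0.374%) and 10 were lower (0.055%), 78 members in all. The deposited values alone gave 83 and 10, and the quantile-normalized values alone 72 and 10. The median gene differed by -0.00 and -0.03, and the SD of the difference over all genes was 0.28 and 0.27, against 0.24 and 0.24 at day 5 and 0.22 and 0.23 at day 3.

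At the pseudocount of 64 most members were on the O(5R)SK side, but this split depended on the pseudocount. With 16 in its place there were 531 higher and 387 lower genes, and with a larger one than 64 there were 33 higher genes and 1 lower gene. The fold rule gave 28 higher (0.154%) and 7 lower genes (0.0385%) on the day 5 pair, and 13 higher (0.0715%) and 9 lower genes (0.0495%) on the day 3 pair. At its bright end the O(5R)SK day 7 array was the lowest of the 6, with a 99th percentile of 13069 against 13984 to 14443, and the highest median, 68.0 against 59.0 to 61.4. Its 955 genes with a mean day 7 intensity over 5000 had a median difference of -0.15 and -0.05. Higher members had a day 7 intensity on the O(WT)SK array between 2.54 and 3895, with a median of 291. In 17 of the 68 that O(WT)SK intensity was below 64, the pseudocount.

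**Figure D1:**
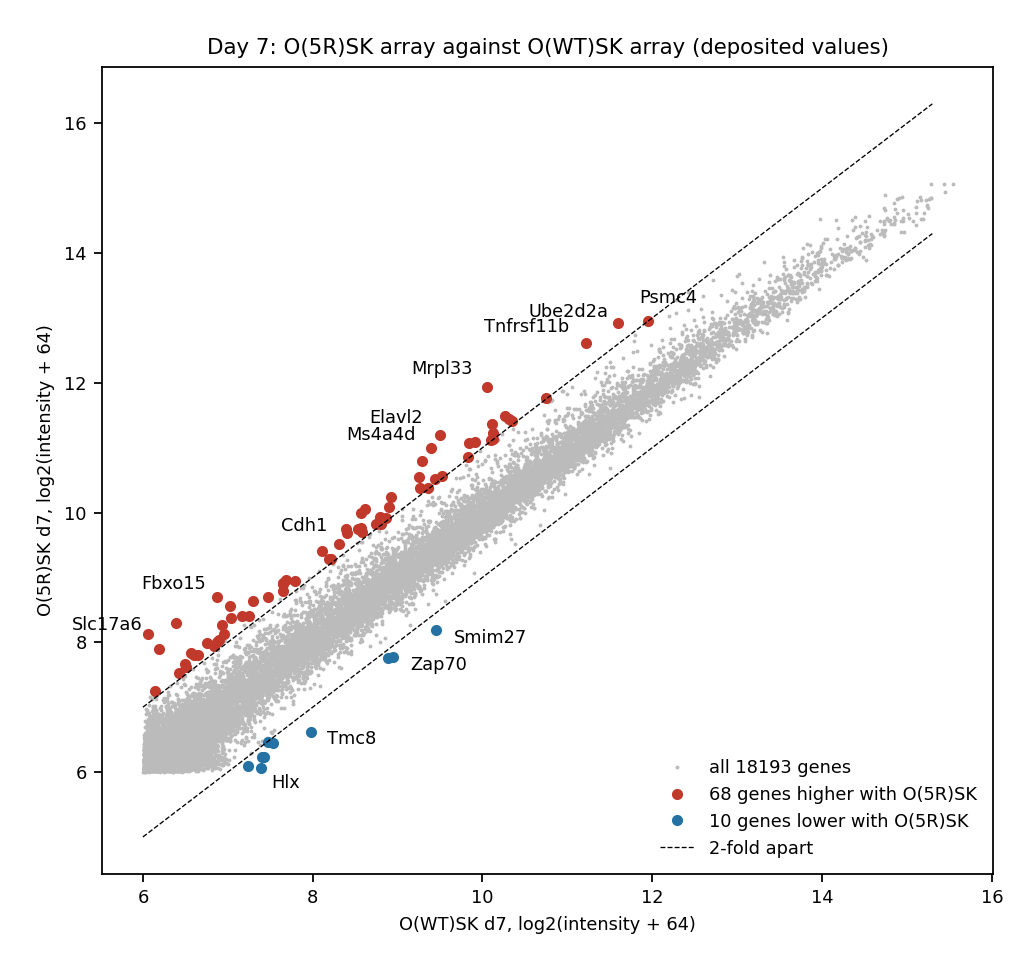
Each point is 1 gene, with log2(intensity + 64) on the O(WT)SK day 7 array on the x axis and on the O(5R)SK day 7 array on the y axis, from deposited values, with 1 array a side. The 68 higher genes (red) lie at or above the upper 2-fold line, with O(WT)SK intensities between 2.54 and 3895, short of the brightest genes. The 10 lower genes (blue) lie at the dim end, with O(WT)SK intensities of at most 638.

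Genes of embryonic stem cells formed the largest listed group among the higher members. In a list of 32 genes that such cells express, 29 were on the array, and 4 were at least 2-fold higher: Fbxo15, L1td1, Cdh1 and Prom1. None was 2-fold lower. Fbxo15, an F-box gene active in embryonic stem cells, read 3.96, 28.3 and 53.4 over days 3, 5 and 7 under O(WT)SK, and 37.4, 88.4 and 349 under O(5R)SK, a day 7 difference of 1.82 and 1.75. It climbed on both sides, and the O(5R)SK array was the higher one on each day. L1td1, which binds RNA and derives from a LINE-1 element, read 478, 585 and 902 under O(WT)SK, and 847, 1192 and 2119 under O(5R)SK (1.18 and 1.19 at day 7). Prom1, the membrane glycoprotein CD133, read 738, 861 and 1165 under O(WT)SK, and 2012, 2174 and 2816 under O(5R)SK (1.23 and 1.24). Its gap was of one size from the start, with day 3 differences of 1.37 and 1.37, and every O(5R)SK array was above every O(WT)SK array.

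Cdh1, which encodes E-cadherin, read 102, 170.1 and 252 over days 3, 5 and 7 under O(WT)SK, and 133, 256 and 665 under O(5R)SK (1.21 and 1.19 at day 7). The sides were within 1.5-fold of each other on days 3 and 5, with day 5 differences of 0.45 and 0.43, and the day 7 O(5R)SK array stood well above the other 5. Tfcp2l1, part of the naive pluripotency network, read 2.68, 4.95 and 87.7 under O(WT)SK, and 54.8, 56.7 and 276 under O(5R)SK (1.17 and 1.09). On the O(WT)SK side it was near the floor until day 5. Its 2 further probe sets were dim on both day 7 arrays (8.02 and 15.6 on one, 20.1 and 5.30 on the other), and the mean over its probe sets differed by 0.31 on deposited values.

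Probe sets of several core regulators were near the floor on both day 7 arrays. Nanog read 16.7 with O(WT)SK and 5.91 with O(5R)SK, Zfp42 read 15.5 and 10.1, Lin28a read 4.68 and 22.9, and Sox2 read 34.1 and 6.83. Both combinations included SOX2, and whether the Sox2 probe set can read the introduced factor was not tested, so its low values do not measure total SOX2. Esrrb read 50.5 and 89.1 (0.42 and 0.34). Among 21 pluripotency regulators on the array, Tfcp2l1 was 2-fold higher and Pou5f1 reached 1.5-fold, and the median over the list was -0.03 and -0.04. The Pou5f1 probe set, which was already apart on day 3 by 0.82 and 0.80, read 2741 with O(WT)SK and 4803 with O(5R)SK at day 7 (0.80 and 0.83). Whether this probe set read the introduced OCT4, the cells' own, or both was not tested, nor was this tested for the Klf4 probe sets and KLF4. Klf4 read 3449 and 3420 on its brightest probe set (-0.01 and 0.01) and 2463 and 3280 on the other (0.40 and 0.41), so its probe sets differed. Myc read 1734 and 1770, with a difference of 0.03 and 0.04.

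Genes known from neurons and axon guidance were found on both sides. Of 43 such genes on the array, Elavl2, Unc5d and Robo1 were 2-fold higher and Sema6c was 2-fold lower. Elavl2, a neuronal RNA-binding protein of the Hu family, read 849, 728 and 661 over days 3, 5 and 7 under O(WT)SK, and 1671, 2114 and 2293 under O(5R)SK (1.70 and 1.73 at day 7). Every O(5R)SK value was above every O(WT)SK value, and the sides moved apart over time. Unc5d, a netrin receptor, read 43.9, 65.4 and 93.2 under O(WT)SK, and 109.6, 193 and 333 under O(5R)SK (1.33 and 1.26). Robo1, a receptor for Slit proteins, read 471, 463 and 401 under O(WT)SK, and 519.7, 576 and 897 under O(5R)SK (1.05 and 1.04), with its gap mostly at day 7. At 1.5-fold, Epha7, Sema3e, Epha4, Snap25 and Tenm1 were also higher, and Nrxn3 was lower beside Sema6c.

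The next 5 higher members belong to no list and were put together after their values were seen, as genes with known roles in nerve cells. Of the 6 neural markers fixed for the cell type check 0 were 1.5-fold apart at day 7, near the shares over all genes of 2.57% higher and 0.945% lower. Tubb3 read 1906 and 1856 (-0.04 and -0.03), Nes read 1396 and 1070.0 (-0.36 and -0.37), and Sox1 was near the floor. Map2, at 171 and 242 (0.38 and 0.31), Pax6 (0.24 and 0.17) and Dcx (0.11 and 0.08) lay on the O(5R)SK side by small amounts. Slc17a6, the vesicular glutamate transporter VGLUT2, had the largest difference of all members: 3.72, 14 and 2.54 over days 3, 5 and 7 under O(WT)SK, and 7.71, 2.19 and 215 under O(5R)SK (2.07 and 1.98). Of its 6 values 5 were below 15, so a single array carries the gap, and its dimmer second probe set read 27.9 and 104 on the day 7 arrays (0.87 and 0.78). Necab1, a neuronal calcium-binding protein, read 20, 0.383 and 19.6 under O(WT)SK, and 7.30, 71.4 and 249 under O(5R)SK (1.91 and 1.83). Its O(WT)SK values were near the floor on all days, and its dim further probe set read 14.3 and 12.8 at day 7 (-0.03 and -0.05). Fgf12, an intracellular member of the FGF family that acts on sodium channels, read 45.5, 47.4 and 57.8 under O(WT)SK, and 71.1, 125 and 245 under O(5R)SK (1.34 and 1.26), and the O(5R)SK array was above all 3 O(WT)SK arrays on every day. Pcdh17, a protocadherin adhesion molecule, read 299, 697 and 1047 under O(WT)SK, and 576, 1409 and 2567 under O(5R)SK (1.24 and 1.26) and climbed on both sides. Cbln2, an organizer of synapses, read 49.4, 106 and 121 under O(5R)SK and stayed below 46 with O(WT)SK.

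Several further higher members encode surface or secreted proteins and were likewise put together after their values were seen. The listed immune genes had no common gap of this kind. The median over 46 macrophage and leukocyte genes was -0.05 and -0.12, against -0.00 and -0.03 over all genes, and 27 were below 0 under both scalings and 17 above. Of the 46, 0 were 2-fold apart, which is near the shares over all genes of 0.374% higher and 0.055% lower. Of 31 chemokines Cxcl5 was the only one 2-fold apart. Ms4a4d and Ms4a4b belong to the MS4A family of membrane-spanning proteins and lie close together on chromosome 19, with 3 protein-coding genes between them. Ms4a4d read 50.8, 126 and 607 over days 3, 5 and 7 under O(WT)SK, and 126, 492 and 1968 under O(5R)SK (1.60 and 1.61 at day 7). Ms4a4b read 74.9, 110.0 and 327 under O(WT)SK, and 150.0, 358 and 994 under O(5R)SK (1.44 and 1.44). Both climbed from day to day with each combination, and on each day the O(5R)SK value was the higher. Ms4a4c, another member of the cluster, read 22.4 and 64 at day 7 (0.57 and 0.50), and Ms4a7 read 418 and 410 (-0.02 and -0.07), so the gap was not common to the family.

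Cxcl5, a chemokine for neutrophils, read 41, 66.4 and 67.2 over days 3, 5 and 7 under O(WT)SK, and 95.7, 224 and 269 under O(5R)SK (1.35 and 1.26). Every O(5R)SK value was above every O(WT)SK value. Cxcl3, of the same family, just missed the rule, with 39.1 and 157 at day 7 (1.0995 and 0.9999). Tnfrsf11b, the secreted decoy receptor osteoprotegerin, was among the brightest members: 2187, 2473 and 2326 under O(WT)SK, and 1923, 3183 and 6171 under O(5R)SK (1.38 and 1.44). The sides were within 1.5-fold of each other on days 3 and 5, and its second probe set went the other way at day 7, from 1006 with O(WT)SK to 676 with O(5R)SK (-0.53 and -0.57). Il13ra2, a decoy receptor for interleukin 13, read 127, 96.8 and 44.1 under O(WT)SK, and 255, 202 and 191 under O(5R)SK (1.24 and 1.15). It dropped on both sides, further with O(WT)SK. Defb1, a beta-defensin, read 197, 489 and 673 under O(WT)SK, and 382, 964 and 1451 under O(5R)SK (1.04 and 1.04), and Stc1, the hormone stanniocalcin 1, read 127.9, 202 and 137 under O(WT)SK, and 287, 428 and 379 under O(5R)SK (1.14 and 1.08).

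Trh and Egfl6 parted mostly at day 7. Trh, the precursor of thyrotropin-releasing hormone, read 54.8, 164 and 383 over days 3, 5 and 7 under O(WT)SK, and 58.4, 129.7 and 844 under O(5R)SK (1.02 and 1.02). With both combinations it climbed between day 5 and day 7, and O(5R)SK was the lower side at day 5. Egfl6, a secreted matrix protein with EGF repeats, read 44.5, 140.0 and 319 under O(WT)SK, and 15.2, 206 and 768 under O(5R)SK (1.12 and 1.10). It too climbed on both sides, with O(5R)SK below O(WT)SK at day 3 and above it at day 7. Cstdc1 and Cstdc2, cystatin domain genes on chromosome 2 with 4 protein-coding genes between them, read 54.8 and 6.85 under O(WT)SK and 199 and 88.3 under O(5R)SK at day 7. Cstdc2 was already apart at day 5, at 5.29 and 66.8 (0.92 and 0.92), and Cstdc1 less so (0.32 and 0.32). Shisa3, an inhibitor of Wnt and FGF signalling, was also apart early: it read 95.2, 185 and 315 under O(WT)SK, and 166, 538 and 953 under O(5R)SK (1.42 and 1.42), and its day 5 differences were 1.27 and 1.26.

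Enzymes, transporters and structural proteins made up a further share. Car2, a cytosolic carbonic anhydrase, read 126, 128.1 and 142 over days 3, 5 and 7 under O(WT)SK, and 342, 366 and 432 under O(5R)SK (1.27 and 1.21 at day 7). Each side was nearly flat over time and the sides did not overlap. Myh1, a myosin heavy chain of fast muscle fibres, read 83.2, 184 and 413 under O(WT)SK, and 234, 664 and 1026 under O(5R)SK (1.19 and 1.20), while the muscle genes Myod1, Myog, Myh3 and Ttn stayed below 64 on both day 7 arrays. Aox3, an aldehyde oxidase, read 13.6, 20.5 and 66.8 under O(WT)SK, and 19.3, 96.5 and 315 under O(5R)SK (1.53 and 1.45). Cers6, a ceramide synthase, read 1505, 1057 and 855 under O(WT)SK, and 1397, 2074 and 2083 under O(5R)SK (1.22 and 1.25). Its O(WT)SK values went down and its O(5R)SK values up.

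Slc38a5, an amino acid transporter for glutamine, read 0.868, 3.68 and 9.05 over days 3, 5 and 7 under O(WT)SK, and 8.16, 1.17 and 174 under O(5R)SK (1.70 and 1.60), so 5 of its 6 values were below 10. Lrrc8d, a subunit of the volume-regulated anion channel, read 671, 641 and 275 under O(WT)SK, and 501, 419 and 758 under O(5R)SK (1.28 and 1.26). The order of the sides turned between day 5, with differences of -0.54 and -0.55, and day 7. Its other probe set read 435 and 400.4 at day 7 (-0.10 and -0.16). Corin, a protease that activates atrial natriuretic peptide, and Pnmt, the enzyme that makes adrenaline, read 159 and 183 with O(5R)SK against 32.8 and 50.7 with O(WT)SK.

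Genes of the nucleus, the RNA and protein machinery and the cell cycle included some of the brightest members. Mrpl33, a protein of the mitochondrial ribosome, read 1776, 1442 and 1000.2 over days 3, 5 and 7 under O(WT)SK, and 1545, 3414 and 3849.6 under O(5R)SK (1.88 and 1.91 at day 7). The O(WT)SK values went down while those of O(5R)SK went up, and at day 3 the order was the reverse. A dim further probe set of Mrpl33 read 34.8 and 38.0 at day 7 (0.05 and 0.01). Nup54, a nuclear pore protein, read 1496, 636 and 560.3 under O(WT)SK, and 1290.5, 1742 and 1716 under O(5R)SK (1.51 and 1.52), but 2 other bright probe sets of it differed by at most 0.26. Ube2d2a, a ubiquitin-conjugating enzyme, read 4241, 3513 and 3031 under O(WT)SK, and 4145, 6348 and 7681 under O(5R)SK (1.32 and 1.38), and its 3 other bright probe sets differed by -0.12 to -0.06 on deposited values. Psmc4, an ATPase of the proteasome, read 3895 and 7868 at day 7 on one probe set and 3752 and 3744 on the other.

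Nr2f1, the orphan nuclear receptor COUP-TFI, read 391, 502 and 595 over days 3, 5 and 7 under O(WT)SK, and 575, 842 and 1270.2 under O(5R)SK (1.02 and 1.02). Meis2, a homeobox partner of Hox proteins, read 832, 841 and 1052 under O(WT)SK, and 947, 1214 and 2175 under O(5R)SK (1.00 and 1.02), and Tox3, an HMG-box protein, read 38.6, 16.2 and 60.4 under O(WT)SK, and 40.7, 81.6 and 216 under O(5R)SK (1.17 and 1.07). In these 3 genes the O(5R)SK value was the higher on each day and the gap was widest at day 7. Nek2, a centrosomal kinase, and Cip2a, an inhibitor of protein phosphatase 2A, read 137 and 228 under O(WT)SK and 419 and 561 under O(5R)SK. The further probe sets of both did not share this gap: the 3 of Nek2 read 133 and 142, 87.1 and 55.6, and 38.3 and 51.2, and the dim one of Cip2a read 31.2 and 25.9. Of 39 mitosis genes on the array 2 were 1.5-fold higher, Kif2c and Ect2, with a list median of 0.03 and 0.01. Zinc finger genes among the members were Zfp995, Zfp991 and Zfp931, of which Zfp931 was the brightest, at 1205 with O(WT)SK and 2733 with O(5R)SK at day 7.

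At day 5 the day 7 gap was already present, at least in part, for a majority of the higher members. By the 2-fold rule 14 of the 68 were higher at day 5 too: Mrpl33, Necab1, Elavl2, Ms4a4d, Nup54, Ms4a4b, Shisa3, Cxcl5, Prom1, Car2, Myh1, Tmem178, Corin and Cysrt1. They were 50% of the genes 2-fold higher at day 5 and 20.6% of those at day 7, where 0.154% of all genes met the rule at day 5. A further 22 were between 1.5-fold and 2-fold higher at day 5, among them Fbxo15, L1td1, Tfcp2l1, Unc5d, Aox3 and Nr2f1. The 36 at 1.5-fold or more were 52.9% of the higher members, against 1.5% of all genes. At any size 60 of 68 were on the higher side at day 5 under both scalings, as were 46.5% of all genes.

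The remaining 8 higher members showed no day 5 gap in that direction. These were Slc17a6, Slc38a5, Lrrc8d, Nek2, Ppwd1, Tank, Pi15 and Trh, with Tank, an adaptor of TRAF signalling, the furthest on the other side at day 5 (-0.56 and -0.56) before 1.11 and 1.12 at day 7. The median difference of the 68 genes on deposited values was 0.13 at day 3, 0.62 at day 5 and 1.20 at day 7, of which the last was fixed by the choice of members. At day 3 only Prom1, Car2 and Myh1 were 2-fold higher, which makes them 2-fold higher on all 3 days. At that time 16 of the 68 were at least 1.5-fold higher, where 1.12% of all genes were.

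**Figure D2:**
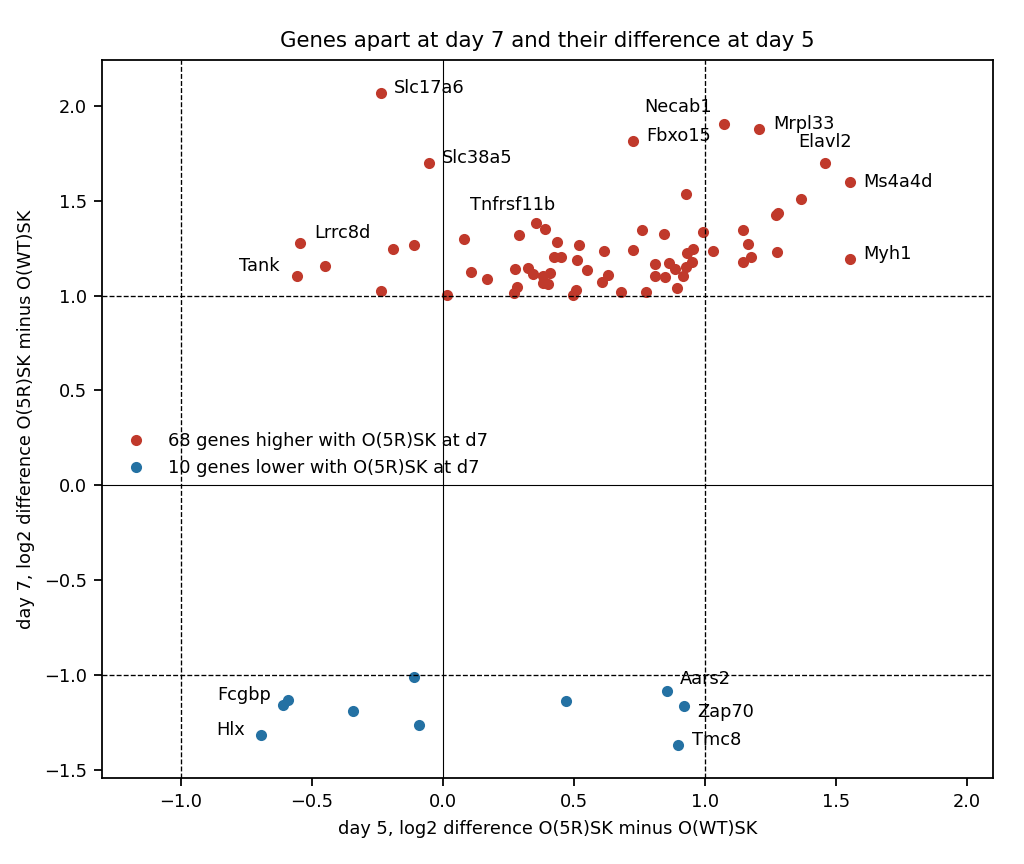
Each point is 1 of the 78 members, with its log2 difference O(5R)SK minus O(WT)SK at day 5 on the x axis and at day 7 on the y axis, from deposited values, 1 array a side. Dashed lines mark 2-fold: 14 of the 68 higher genes (red) lie beyond it at day 5, while of the 10 lower genes (blue) none does and Tmc8, Zap70, Aars2 and 1110020A21Rik lie on the opposite side of 0.

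The course over the 6 arrays showed which side of each gap stood out. The O(5R)SK day 7 array held the highest of the 6 values in 60 of 68 genes under both scalings, as it did in 16.8% of all genes. The O(WT)SK day 7 array held the lowest in 23 of the 68, as it did in 16.8% of all genes, and 18 of the 68 had both. Nup54, Il13ra2, Cip2a, Dmxl1 and Tbc1d9 had the lowest O(WT)SK value without the highest O(5R)SK value, and Cysrt1, Stc1 and Prrt4 had neither. Since members were chosen for a high O(5R)SK or a low O(WT)SK value at day 7, these counts describe them and support nothing.

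Between day 5 and day 7 the O(5R)SK value went up at least 1.5-fold in 32 of the 68, and the O(WT)SK value went down by that much in 8. These moves were not counted over all genes, and the day 7 values in them were used to choose the members. The counts therefore describe the members and support nothing. In Dse, Dmxl1, Tbc1d9 and Prrt4 only the O(WT)SK side moved. Tbc1d9, a protein with a Rab GTPase-activating domain, read 213, 183 and 53.5 over days 3, 5 and 7 under O(WT)SK, and 204, 202 and 192 under O(5R)SK (1.12 and 1.03), so the O(5R)SK side was flat. Dse, an epimerase of dermatan sulfate, read 639.6, 626 and 365 under O(WT)SK, and 650.2, 710.0 and 846 under O(5R)SK (1.09 and 1.08). In 9 of the 32 the O(WT)SK value went up at least 1.5-fold as well, among them Ms4a4d, Ms4a4b, Aox3, Mpzl2, Egfl6, Tfcp2l1 and Trh, so these genes moved the same way with both combinations. Mpzl2, an adhesion molecule of the immunoglobulin type, read 130.3, 279.9 and 547 under O(WT)SK, and 113, 401 and 1425 under O(5R)SK (1.28 and 1.29). In another 32 genes, such as Elavl2, Prom1, Car2 and Cxcl5, neither did the O(5R)SK value go up nor the O(WT)SK value go down by 1.5-fold.

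**Figure D3:**
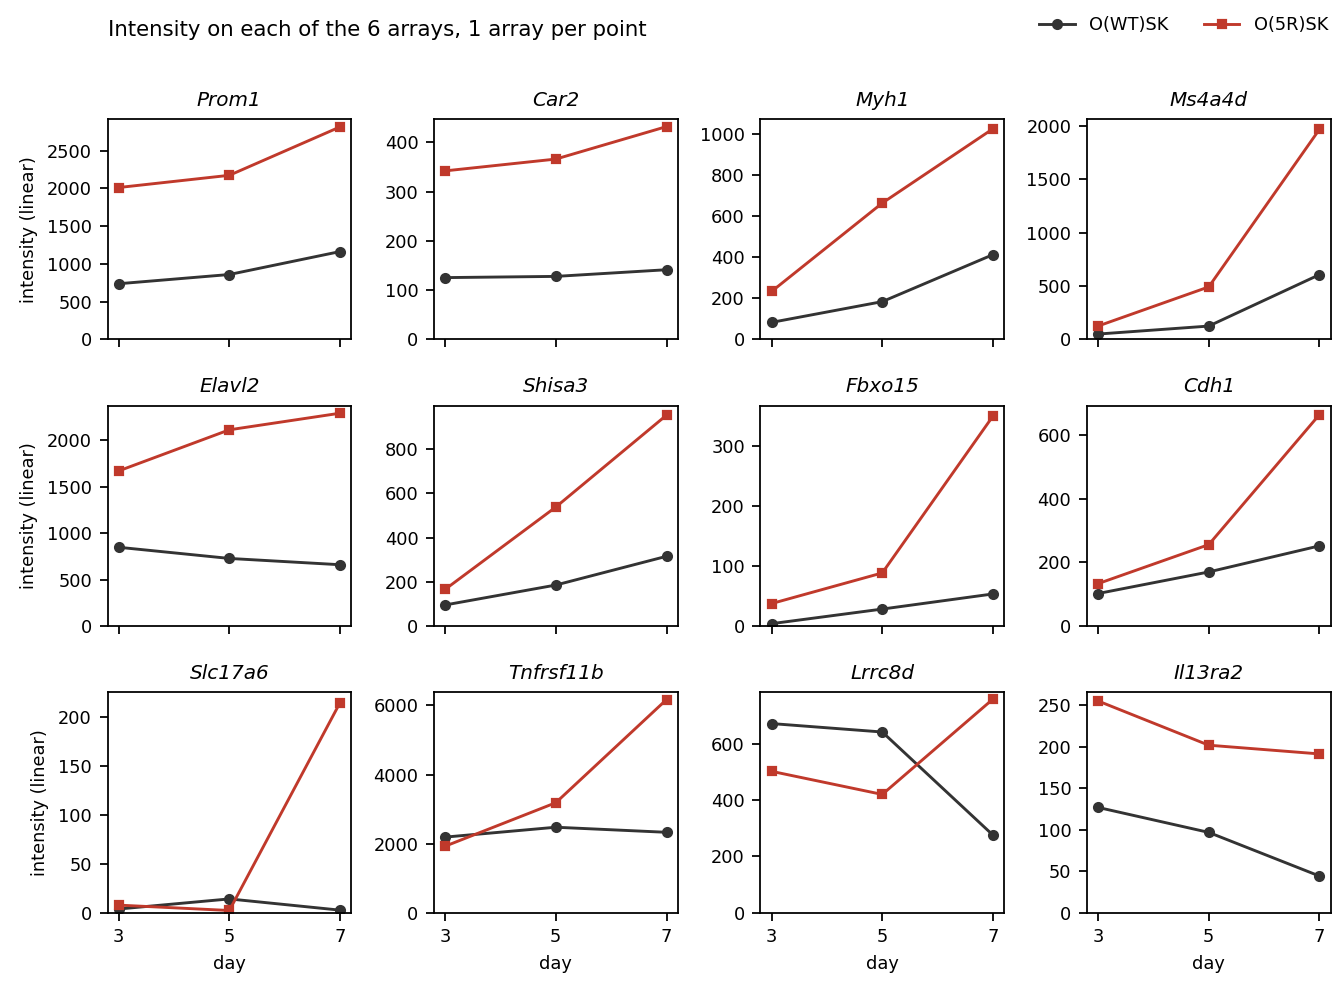
Each panel shows 1 higher gene, with day 3, 5 and 7 on the x axis and linear deposited intensity on the y axis, 1 array per point, O(WT)SK in black and O(5R)SK in red. Prom1, Car2, Myh1 and Elavl2 were apart on every day, Fbxo15, Cdh1, Slc17a6 and Tnfrsf11b parted mostly at day 7, Lrrc8d crossed over, and Il13ra2 went down on both sides.

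The 10 lower members were mostly dim, and 3 had a gap of 1.5-fold at day 5. Their O(5R)SK day 7 intensity was below 64 in 7 of 10, and none was 2-fold lower at day 5. Hlx, a homeobox transcription factor, read 57.3, 74.3 and 103 over days 3, 5 and 7 under O(WT)SK, and 50.9, 21.4 and 3.03 under O(5R)SK (-1.32 and -1.32 at day 7). It climbed with O(WT)SK and sank with O(5R)SK, with day 5 differences of -0.70 and -0.69. Sema6c, a transmembrane semaphorin, read 70.5, 115 and 105 under O(WT)SK, and 20.1, 53.5 and 11.5 under O(5R)SK (-1.16 and -1.18), and the O(5R)SK value was the lower on every day. Fcgbp, a mucin-like protein that binds IgG, read 493, 497 and 410.1 under O(WT)SK, and 347, 308 and 152 under O(5R)SK (-1.13 and -1.21), also lower on every day. These 3 were 1.5-fold lower at day 5, as were 1.13% of all genes, and of the 10 only Sema6c and Aars2 were so at day 3 (0.951% of all genes).

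The other lower members were not 1.5-fold lower at day 5. Smim27, a small membrane protein and the brightest of the 10 at day 7, read 361, 389 and 638 over days 3, 5 and 7 under O(WT)SK, and 407, 361 and 228 under O(5R)SK (-1.26 and -1.34). Ankrd23, an ankyrin repeat protein of muscle, read 95.9, 73.6 and 108 under O(WT)SK, and 80.1, 44.5 and 11.4 under O(5R)SK (-1.19 and -1.21). Tmc8, a transmembrane channel-like protein, read 47.3, 36.7 and 189 under O(WT)SK, and 182, 124 and 33.8 under O(5R)SK (-1.37 and -1.40), which is the reverse of its order on days 3 and 5. Zap70, a kinase of T cell receptor signalling, read 340.2, 48 and 428 under O(WT)SK, and 220.0, 148 and 155 under O(5R)SK (-1.17 and -1.25), and its O(WT)SK values alone spanned from 48.0 to 428. Aars2, the mitochondrial alanyl-tRNA synthetase, read 112, 18.4 and 122 under O(WT)SK, and 30.3, 85 and 23.5 under O(5R)SK (-1.08 and -1.10). Its order turned from day to day, being lower with O(5R)SK at day 3, higher at day 5 and lower at day 7. 1110020A21Rik and Sdr39u1, a short-chain dehydrogenase, read 86.7 and 114 under O(WT)SK and 4.36 and 24.3 under O(5R)SK.

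Second probe sets read the same RNA on the same arrays but were not used to choose the genes. A further probe set naming the same gene existed for 40 of the 68, and 21 genes had at least 1 that reached an intensity of 200 on a day 7 array, 29 probe sets in all. Of these 29, 9 were at least 1.5-fold higher with O(5R)SK, 20 were within 1.5-fold and 0 were 1.5-fold lower. Over all genes 5.94% of such further probe sets were 1.5-fold higher. The 9 belonged to Defb1, Elavl2, Fgf12, Meis2, Mpzl2, Myh1, Pcdh17 and Shisa3. Elavl2 had 2 of them, at 658 and 1963 (1.49 and 1.5) and at 176 and 368 (0.85 and 0.79). Shisa3 read 221 and 561 on its second probe set (1.13 and 1.11), and Pcdh17 read 1101 and 2121 (0.91 and 0.91). For Meis2, Mpzl2 and Myh1 the counted probe set ends in x_at, a mark for probe sets that can also bind unrelated transcripts. Another bright probe set of Meis2 read 1143 and 1532 (0.40 and 0.40), and a dim one 95.5 and 198.6 (0.72 and 0.62). The dim other ones of Mpzl2 and Myh1 read 68.1 and 78.2, and 2.99 and 2.17.

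In 13 genes no bright further probe set was 1.5-fold higher: Abtb2, Camk2d, Cyp20a1, Lrrc8d, Mtm1, Nrep, Nup54, Pnrc2, Psmc4, Rbm26, Tnfrsf11b, Ube2d2a and Zfp995. For these the gap belonged to 1 of several bright probe sets, while a dim further one of Nup54 read 3.56 and 49.7 (0.75 and 0.70). What sets the probe sets of a gene apart was not tested. The 12 members whose probe set name ends in a_at, a mark for several transcripts of 1 gene, were 15.4% of the 78 against 11.9% of all genes. The 4 ending in x_at, which can also bind unrelated transcripts, were 5.13% against 3.56%: these were Nup54, Lce1i, Zfp931 and Nrep. A single probe set stood for 28 of the higher members, among them Fbxo15, Cdh1, Prom1, L1td1, Car2 and Ms4a4d, so no second reading exists for them. No lower member had a bright further probe set.

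**Figure D4:**
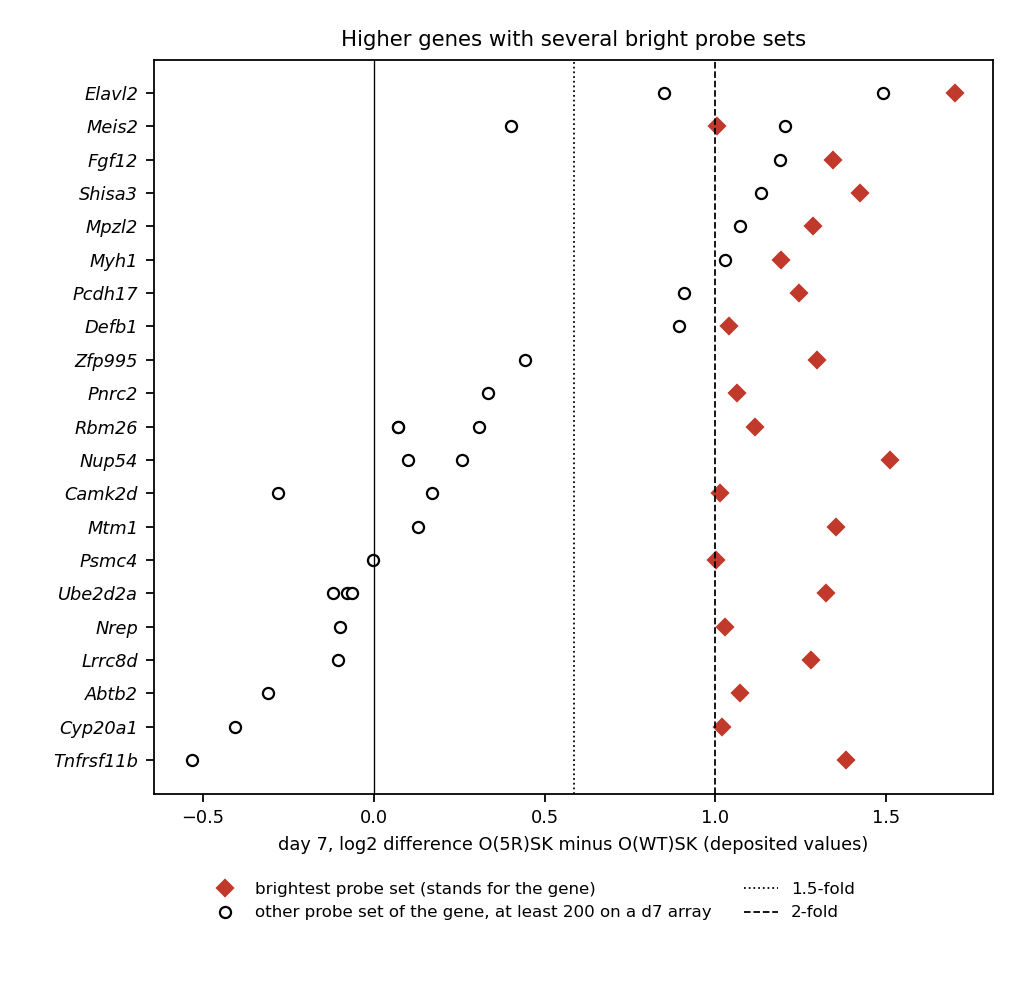
Each row is 1 of the 21 higher genes with a further bright probe set, with the day 7 log2 difference O(5R)SK minus O(WT)SK on the x axis, from deposited values, 1 array a side. Filled diamonds are the probe sets that stood for the genes and open circles the others: 9 circles in 8 genes lie beyond the 1.5-fold line and the other 20 lie short of it, around 0.

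Beyond the members, 39 gene lists with 1123 genes on the array were read at day 7. Only 15 members belonged to any list, 13 higher and 2 lower, and 30 lists held no gene 2-fold apart. At 1.5-fold, 468 of all genes were higher (2.57%) and 172 lower (0.945%). The median over all genes was -0.00 and -0.03, beside which the list medians and the counts above or below 0 can be read. In the embryonic stem cell list 8 of 29 genes were 1.5-fold higher and 0 lower, with a list median of 0.26 and 0.23. Beside the 2-fold genes these were Dnmt3l, a cofactor of DNA methylation that was below 64 on both arrays, Alpl, the alkaline phosphatase used as a stem cell stain, Rif1, and Bex1. Bex1 read 3424 and 5660 at day 7 (0.72 and 0.75), Rif1 read 451 and 766 (0.69 and 0.67), and Alpl read 32.2 and 127.6 (0.99 and 0.90). At day 5 the same list had a median of 0.06 and 0.06 and 5 genes at 1.5-fold.

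In the neural and guidance list 8 of 43 genes were 1.5-fold higher and 2 lower, with a median of 0.17 and 0.09. Epithelial junction genes had a median of 0.21 and 0.20 over 30 genes, of which Cdh1, Cldn4 and Dsg2 were 1.5-fold higher and 22 were above 0 under both scalings. Cldn4 and Dsg2, parts of tight junctions and desmosomes, read 56.2 and 110 with O(5R)SK against 11.2 and 39.7 with O(WT)SK. The splicing regulator Esrp2 and the epithelial factor Ehf, in the list of epithelial regulators, were also 1.5-fold higher (0.71 and 0.61 for Esrp2). That list as a whole did not lean to a side: its 18 genes had a median of 0.01 and -0.03, with 9 above 0 and 9 below. Zeb1, a repressor of Cdh1, read 2373 with O(WT)SK and 1476 with O(5R)SK (-0.66 and -0.67). It was the only one of 19 transcription factors of the epithelial-to-mesenchymal transition that was 1.5-fold lower, and the list median was 0.01 and -0.03. Among 26 keratin and envelope genes Krt14 was 1.5-fold lower (-0.73 and -0.81) and none was 1.5-fold higher.

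Matrix genes leaned to the O(WT)SK side by small amounts. Collagens had a median of -0.20 and -0.19 over 26 genes, with 18 below 0, yet Col12a1, a fibril-associated collagen, read 2058 and 3842 (0.88 and 0.90) and Col15a1 was 1.5-fold higher too. Ribosomal protein genes had a median of -0.29 on deposited and -0.00 on quantile-normalized values, so their direction was lost with the second scaling. Chromatin and DNA methylation genes had a median of 0.25 and 0.20, with 21 of 31 above 0 and 1 at 1.5-fold. No gene was 1.5-fold apart in the DNA replication, interferon response, cholesterol synthesis or TGF-beta lists, whose medians lay between -0.06 and 0.06. All lists were chosen with earlier results of these arrays known, and their counts are descriptions.

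**Figure D5:**
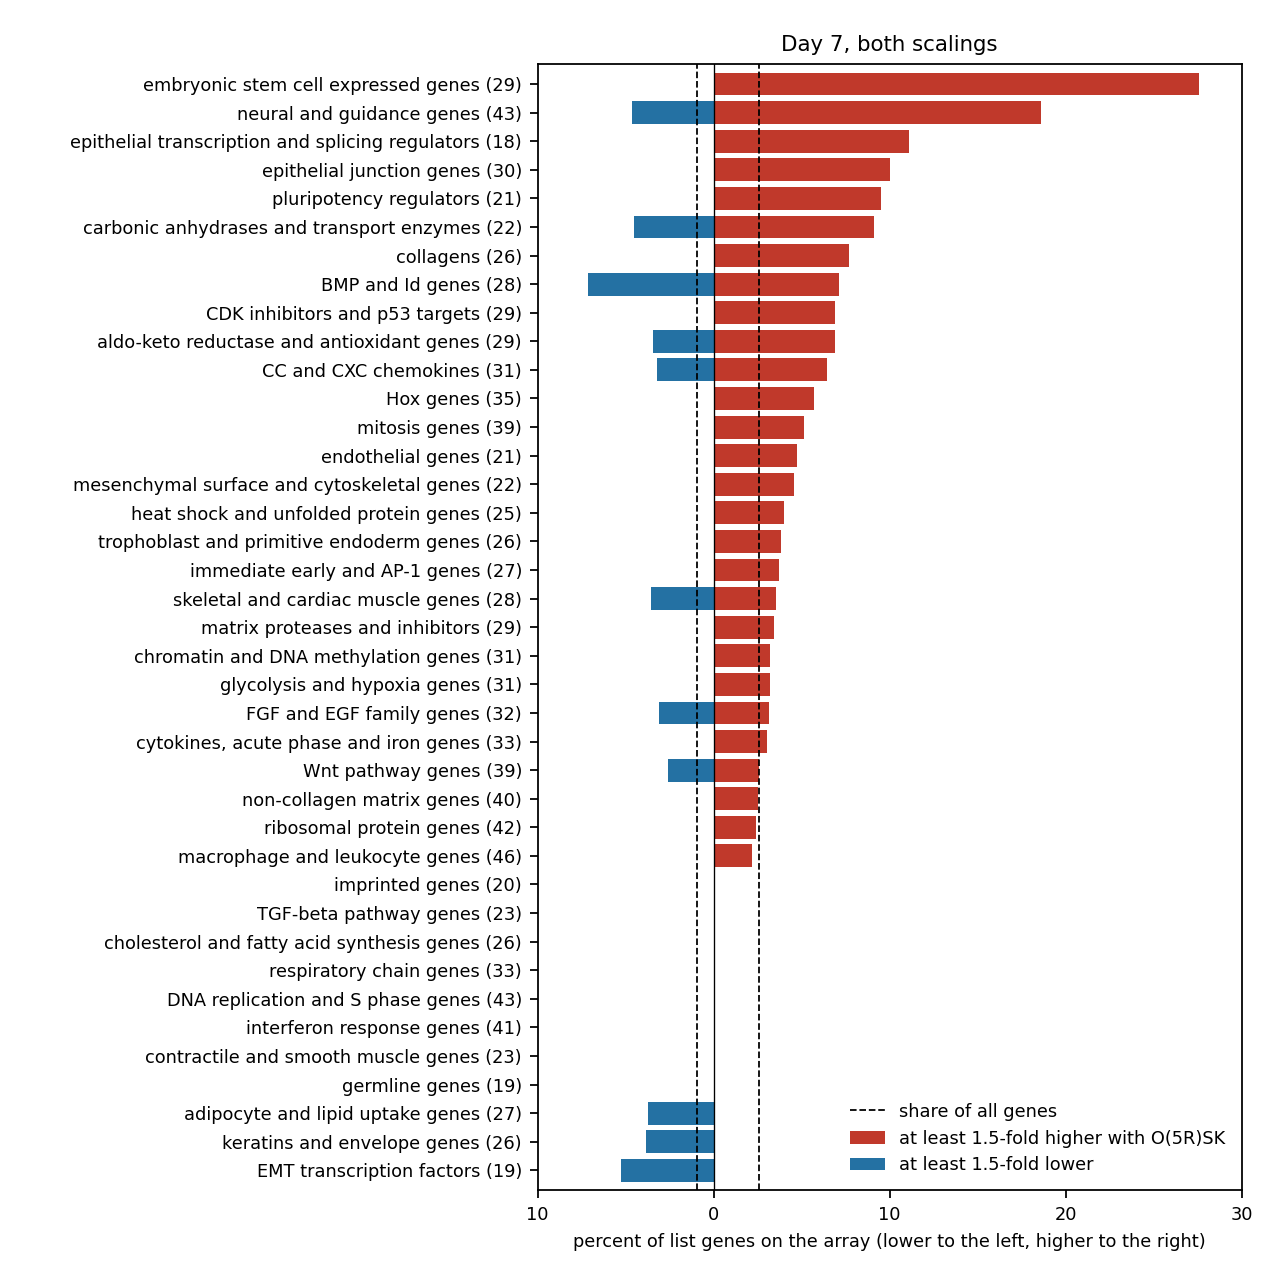
Each bar is 1 of the 39 gene lists, with the number of its genes on the array in parentheses, and shows the percent of those genes at least 1.5-fold higher (red, to the right) or lower (blue, to the left) with O(5R)SK at day 7 under both scalings. Dashed lines mark the shares over all genes, 2.57% and 0.945%, and the embryonic stem cell list and the neural and guidance list reach furthest to the right.

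Defining markers showed fibroblasts on both day 7 arrays. All 9 fibroblast markers were at 64 or more on each array and none was 1.5-fold apart under both scalings, with a summed intensity of 108567 for O(WT)SK and 78718 for O(5R)SK, or 102777 and 89023 after quantile normalization. Pdgfra and Lum were only just above 64 with O(WT)SK, at 69.1 and 65.2, and read 103.4 and 103.2 with O(5R)SK. Embryonic stem cell markers summed to 392.1 and 863, and 5 of the 9 were below 64 on both arrays. The gap in that sum came from Fbxo15 and Tfcp2l1. Epithelial markers summed to 1551 and 1936. The widest gap among these was that of Cdh1, at 252 and 665, which is a member and so was chosen for its day 7 gap. Krt19, the brightest of them with O(WT)SK, went the other way, at 740.3 and 552. Smooth muscle markers summed to 69938 and 51581, or 65985 and 58785 after quantile normalization, so much of that gap went with the scaling. Macrophage markers summed to 3447 and 2954, adipocyte markers to 1729.8 and 1143, and neural markers to 3549 and 3269, with Sox1 at 5.30 and 3.19. The part of other cell types in the differences above was not tested.

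Promoter sequence was read for the 58 members with an entry in the RefSeq table (GRCm38.p6), 48 higher and 10 lower, over 250 bases before to 50 after the annotated start. The octamer ATGCAAAT, the motif bound by OCT4 and its relatives, was searched on both strands and found in 2 of 48 higher members (4.17%), 0 of 10 lower members and 1.68% of all 14452 genes with an entry. Its 2 holders were Fgf12 and Abtb2. The E-box CACCTG, to which Zeb1 and Snail proteins bind, was in 27.1% of higher members, 4 of 10 lower members and 22.9% of all genes. The box CACCC, of the kind KLF proteins bind, was in 66.7% of higher members, 9 of 10 lower members and 66.2% of all genes. A match is a run of letters in this window, not a measured site.

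Both octamer promoters are shown, with the octamer in capitals, since OCT4 is the factor that differs between the arrays. Fgf12 lies on the minus strand at chr16:28753240-28753307, and its match begins at position -4 from the start. Abtb2 lies on the plus strand at chr2:103566113-103566309, with matches at -137 and -53, but its second bright probe set did not follow the first (-0.31 and -0.40). Tfcp2l1 is shown as the pluripotency regulator among the members, on the plus strand at chr1:118627765-118627944, with both of its E-boxes in capitals at -120 and -40.
Fgf12: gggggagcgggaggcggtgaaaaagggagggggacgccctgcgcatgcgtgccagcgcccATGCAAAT
Abtb2: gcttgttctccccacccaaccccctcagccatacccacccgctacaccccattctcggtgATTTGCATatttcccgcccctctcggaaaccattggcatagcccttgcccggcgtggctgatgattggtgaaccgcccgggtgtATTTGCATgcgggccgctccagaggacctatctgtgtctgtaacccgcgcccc
Tfcp2l1: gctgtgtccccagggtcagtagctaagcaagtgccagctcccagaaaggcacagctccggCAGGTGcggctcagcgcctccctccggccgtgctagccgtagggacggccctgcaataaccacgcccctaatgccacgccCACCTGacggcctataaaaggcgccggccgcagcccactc

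Some members were neighbours on a chromosome beyond the Ms4a4 and cystatin pairs. Psmc4 and Fcgbp are adjacent on chromosome 7 and went in opposite directions. Prom1 and Cpeb2, an RNA-binding protein of cytoplasmic polyadenylation, lie on chromosome 5 with 6 protein-coding genes between them, and Fbxo15 and Cbln2 on chromosome 18 with 2 between them. The lower genes Ankrd23 and Zap70 lie on chromosome 1 with 6 between them.

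The 2-fold line fell within a dense range of values. Just inside it lay Psmc4 (1.00 and 1.08) and Meis2 (1.00 and 1.02) on the higher side, and Sdr39u1 (-1.01 and -1.03) and Aars2 on the lower. Just outside lay Cxcl3 and Klhl2, an adaptor of a ubiquitin ligase, at 466 and 996 (0.9991 and 1.0013), and on the lower side Aldh4a1, an enzyme of proline breakdown, at 90.3 and 14.4 (-0.976 and -0.996), and 1700036A12Rik.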

How the data were processed

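Expression was measured on 6 Affymetrix Mouse Genome 430 2.0 arrays, 1 per combination and day, from Trizol RNA labelled as biotinylated cRNA, per the labels' protocols. The deposited values are linear intensities per probe set. The submitters' processing notes name affy, and its version and summary method are not stated there. Every array has a trimmed mean (2% off each end) of 500.0, and the arrays were not quantile-normalized by the authors, as tested on the values. Arrays give no counting depth, so 1 array a side limits the precision.

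Probe sets were named from the platform annotation: of 45101, 34945 named 1 gene, 932 several and 9160 none, and 64 were controls. Of those naming 1 gene, 34741 matched RefSeq by gene ID. The brightest probe set over the 6 arrays stood for each of 18193 genes. Values were read as log2(intensity + 64), as deposited and after quantile normalization over the 6 arrays without controls, in Python 3.11.15 with numpy 2.4.6 and pandas 2.3.3. Cyclic loess used limma 3.58.1. A gene was called when it was at least 2-fold apart the same way under both scalings. The script was tested on simulated data. No filter on low values was applied. The members and the gene lists were chosen with earlier results of these data known.

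Genes were named by a rule: the 20 largest differences in each direction by the smaller of both scalings (predicted genes skipped), list members past 2-fold, genes just inside and outside the rule, the factors, and genes apart on both day 5 and day 7. Other genes named were chosen after their values were seen. Alternatives were pseudocounts of 16 and 128, the mean of all probe sets, other scalings, a minimum intensity of 200, and, chosen after seeing the data, a 1.5-fold rule and a probe set chosen on the day 3 and day 5 arrays.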

Additional observations from a re-analysis of the deposited data

Results flagged for a closer look

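In 3 of the 10 genes lower with O(5R)SK at day 7 the order of the arrays was the opposite at day 5, with at least 1.5-fold on both days. The day 5 and day 7 log2 differences on deposited values were 0.90 and -1.37 for Tmc8, 0.92 and -1.17 for Zap70, and 0.85 and -1.08 for Aars2. Each day has 1 array a side, so the difference between the days was not tested. No higher member was 1.5-fold apart the other way at day 5.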

How the results depend on the processing

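The number of members depended most on the pseudocount. With a pseudocount of 16 there were 531 higher and 387 lower genes, 77 and 40 of them 2-fold the same way at day 5, and the O(5R)SK day 7 array was highest in 290 of the higher genes. With the larger pseudocount there were 33 higher genes and 1 lower gene, 8 of the higher already 2-fold at day 5 and 32 with that array highest. The mean over all probe sets of a gene gave 35 and 6, with 7 at day 5 and 32 highest, and a minimum intensity of 200 left 3 lower genes. A 1.5-fold rule, chosen after seeing the data, gave 468 and 172, with 84 and 8 at day 5 and 362 highest. Quantile normalization within each day, cyclic loess and a common median gave 56 to 72 higher and 10 lower genes, and a probe set chosen on the day 3 and day 5 arrays gave 64 and 10. Under all 7 alternatives chosen at the outset 14 of the 68 higher members were kept (Aox3, Car2, Cdh1, Cers6, Elavl2, Fbxo15, L1td1, Lce1i, Ms4a4d, Pcdh17, Prom1, Shisa3, Slc17a6 and Zfp931) and 0 of the 10 lower. Not every alternative could remove a gene. The smaller pseudocount kept all 68 and all 10, since it can only widen a gap. Of the 14 only Elavl2, Pcdh17, Shisa3 and Slc17a6 had a further probe set, so the mean over probe sets could not change the others. Of 1160 recomputed single-gene differences 0 turned direction past the rule, 102 lost the 2-fold call and 26 gained it. Genes below 200 on both day 7 arrays were not recomputed under the minimum intensity, so calls lost there are not among the 102. That minimum kept 56 of the 68 higher and 3 of the 10 lower members. The cause of the lost and gained calls was not tested. Values below 64 are near the floor of the arrays, which limits the lower members most. No paired analysis was possible because each group holds 1 array and no test was made.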

Other observations

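Probe sets that name no gene or several genes were left out of the report. Of these 10092 probe sets, 33 were at least 2-fold higher with O(5R)SK at day 7 under both scalings (0.327%) and 6 were lower.

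At 1.5-fold a few genes outside the members differed at bright intensities, chosen here after their values were seen. Mme, a membrane peptidase, read 3470.2 with O(WT)SK and 6342 with O(5R)SK at day 7 (log2 difference 0.86 on deposited and 0.91 on quantile-normalized values). Akr1c18, an aldo-keto reductase that breaks down progesterone, read 6672 and 12239 (0.87 and 0.95), and it was more than 2-fold higher with O(5R)SK on days 3 and 5 (1.10 and 1.12 on deposited values). Cat, which encodes catalase, read 2829 and 5069.5 (0.83 and 0.88). On the lower side Ccl2, a monocyte chemokine, read 5573 and 3542 (-0.64 and -0.63), and Aldh3a1, an aldehyde dehydrogenase, read 5929.8 and 3880.0 (-0.60 and -0.59).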
